A study of Homo sapiens with 6 samples.

Results

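Imprinted loci are stretches of the genome where one parental copy of a gene is kept silent by DNA methylation set in the egg or the sperm. Here 10 of them were followed in naive human embryonic stem cells (nES cells): H19, IGF2, KCNQ1OT1, MEG3, DLK1, PEG3, PEG10, SNRPN, MEST and PLAGL1. A peak, meaning a row of the deposited ATAC-seq count table, was taken as a member if it overlapped one of these genes in GENCODE 44 or lay within 30 kb of one. This gave 141 of the 171517 peaks in the table, 102 inside a gene and 39 outside, and 1 peak between DLK1 and MEG3 belonged to both. SNRPN had 29 members, MEG3 26, IGF2 16, PLAGL1 14, DLK1 13, H19, KCNQ1OT1 and PEG3 11 each, PEG10 6 and MEST 5. Position relative to these genes chose the peaks, though the choice was made with earlier results of these data known.

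The cells were H9, an established embryonic stem cell line, kept naive in the medium tt2iLGö on mouse feeder cells that were depleted before plating. Treated cells received 4 mM dm-αKG, a cell-permeable dimethyl ester of the metabolite α-ketoglutarate, for 24 h. Control cells received 0 mM, and the labels call them DMSO. There were 3 libraries in each group, described as biological replicates of 1 line in an assay done once. ATAC-seq cuts and tags DNA wherever chromatin is open, so a count measures how accessible a peak was over all cells and both parental copies. The counts do not separate the parental alleles, and fewer cells with an open site and less opening per cell cannot be told apart. Libraries held 13025674 to 26828622 counts, and Pearson correlations of log counts across peaks were 0.954 to 0.973 within groups and 0.925 to 0.938 between them. The presence of a promoter peak did not tell cell types apart: 8 of 9 naive, 5 of 5 trophoblast and 4 of 5 fibroblast markers had one. Their control counts, scaled for library size, had medians of 377, 257 and 194. The ranges were 201 to 746 for naive, 133 to 471 for trophoblast and 112 to 200 for fibroblast markers.

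In background, most imprinted genes lie in clusters with a shared control region, where methylation on one parental copy decides which genes are used. Long non-coding RNAs such as H19, MEG3 and KCNQ1OT1 run through these clusters, and their starts or flanks often coincide with the control region. The protein ZFP57, with its partner TRIM28, binds the methylated copy and protects the mark, CTCF binds some unmethylated copies, and TET enzymes, which need α-ketoglutarate, oxidize methylated cytosine. Human naive cells in culture are known to lose methylation at many imprints. No methylation or RNA was measured in these libraries.

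Of the peaks the results turn on, 3 are printed from the hg38 reference, + strand, 5′ to 3′, with every CpG, the dinucleotide that carries DNA methylation, in capitals. The first is a MEG3 peak that fell, and the others are a SNRPN peak that fell and the peak over the start of SNRPN's canonical transcript.
MEG3, chr14:100834700-100834899: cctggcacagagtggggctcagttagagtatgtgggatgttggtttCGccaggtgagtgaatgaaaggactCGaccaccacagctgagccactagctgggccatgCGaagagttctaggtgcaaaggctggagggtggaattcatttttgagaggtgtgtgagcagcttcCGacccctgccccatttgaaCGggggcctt
SNRPN, chr15:24951167-24951375: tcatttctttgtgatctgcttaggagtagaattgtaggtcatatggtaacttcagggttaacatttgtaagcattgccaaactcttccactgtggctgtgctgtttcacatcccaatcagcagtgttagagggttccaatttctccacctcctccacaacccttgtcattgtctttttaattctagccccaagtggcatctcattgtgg
SNRPN, chr15:24954854-24955066: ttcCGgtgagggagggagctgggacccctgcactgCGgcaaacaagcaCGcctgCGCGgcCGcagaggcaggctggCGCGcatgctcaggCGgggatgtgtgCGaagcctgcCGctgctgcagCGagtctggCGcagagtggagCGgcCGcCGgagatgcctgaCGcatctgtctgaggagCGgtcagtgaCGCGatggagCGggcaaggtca
In the 200 bp around its centre, the MEG3 peak held 5 CpGs and the SNRPN peak that lost most held 0. The peak over the canonical SNRPN start held 20.

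Across the 10 loci 112 of the 141 peaks did not pass the test, and most of the losses lay at MEG3 and SNRPN. In edgeR's quasi-likelihood test with Benjamini-Hochberg adjustment over all peaks, 7 members were called less accessible with dm-αKG, at an adjusted p below 0.01 and a log2 fold change (dm-αKG over control) below -1. That was 4.96% of members, against 1.96% of all peaks. Of these 7, 4 were at MEG3 and 3 at SNRPN. At the same thresholds 2 members were called more accessible, 1 beside KCNQ1OT1's start and 1 downstream of MEG3, which was 1.42% against 0.782% of all peaks. Without the fold threshold 21 members fell, or 14.9% against 6.54% of all peaks, and 8 rose, or 5.67% against 3.34%. The median control count was 88.2 over the members and 65.3 over all peaks, so these shares are not matched for count.

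The excess of losses rested in part on neighbouring peaks that are not independent of one another. The 21 peaks that fell lay in 13 intervals of the deposited control peak list, and 7 of them, all in MEG3, shared 1 interval. Without those 7, a split made after seeing the values, 3 of 134 members (2.24%) were called less accessible, close to the 1.96% of all peaks. On the same split 14 members (10.4%) fell, against 6.54% of all peaks. The 8 peaks that rose did not share an interval in that list, which held 6 of them. The normalized counts of the treated libraries lay entirely below the controls in 33 members, or 23.4% against 16.9% of all peaks, and entirely above in 22, or 15.6% against 15.5%. The median log2 fold change over the members was -0.004, beside 0.011 over all peaks.

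**Figure D1:**
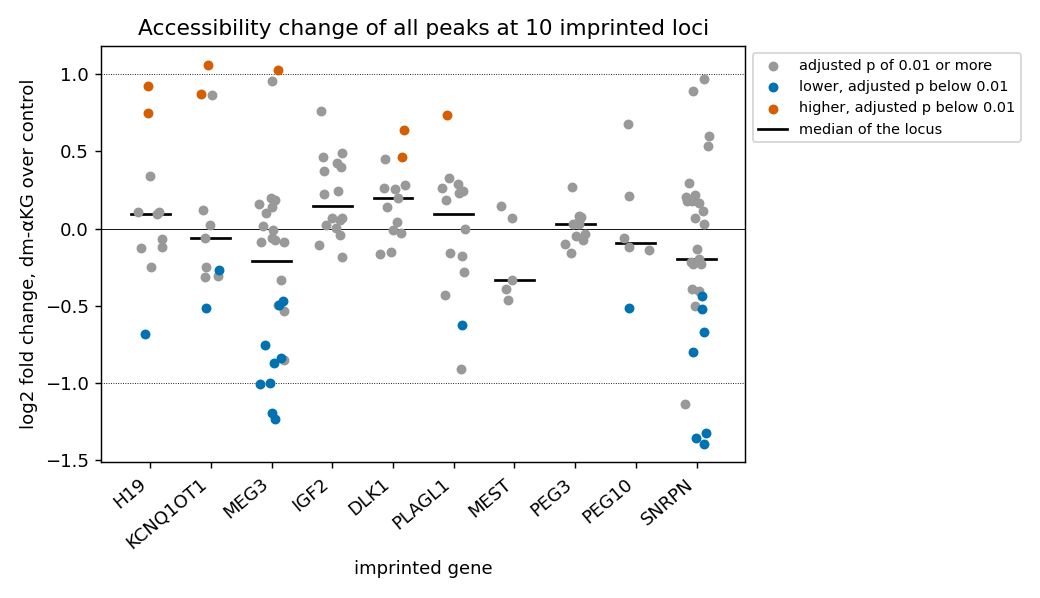
Log2 fold change (dm-αKG over control) of every member peak, grouped by gene, with the gene's median as a black line and dotted lines at the fold threshold of 1 in each direction. Blue points fell and orange points rose at an adjusted p below 0.01; blue points crowd at MEG3 with 9 and SNRPN with 7, and PEG3, IGF2 and MEST have no coloured point.

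Summed over each locus, normalized counts were lower in every treated library than in any control at MEG3, SNRPN, MEST and H19, and higher in every treated library at DLK1. The MEG3 sum was 5392 ± 94.8 (SD, n = 3) in controls and 4538 ± 199 with dm-αKG, a ratio of 0.841, but its 19 peaks outside the 7 that share an interval had a ratio of 0.946 and overlapping groups. The SNRPN sum went from 3591 ± 66.9 to 3003 ± 59.2, a ratio of 0.836, and the MEST sum from 598 ± 25.5 to 521 ± 12.3, a ratio of 0.871. These were the 3 lowest ratios among the loci. At MEST none of the 5 peaks passed the test, and most of the drop was in 1 of them, chr7:130486172-130486372, with means of 242 and 186. H19 followed at 0.933 with its treated libraries spread from 1310 to 1517, just under the lowest control at 1526. The mean H19 sum went from 1532 to 1429. A larger drop, from a mean of 385 to 240, was that of 1 peak outside the gene, chr11:1978925-1979126, so the lower H19 sum rested on that peak. DLK1 stood at the other end, with 1240 ± 42.5 and 1454 ± 26.0, a ratio of 1.17. At IGF2 the ratio was 1.15 but the treated libraries ran from 947 to 1232 and overlapped the controls, which ran from 920 to 1052. The sums of KCNQ1OT1, PEG3, PEG10 and PLAGL1 overlapped between the groups, with ratios from 0.946 to 1.05. Over all peaks of the table the sum was itself slightly lower in every treated library than in any control, at a ratio of 0.989. Separation of the groups alone therefore does not set a locus apart from the table. Sums over peaks weigh the strongest peaks most, and no test was run on them.

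**Figure D2:**
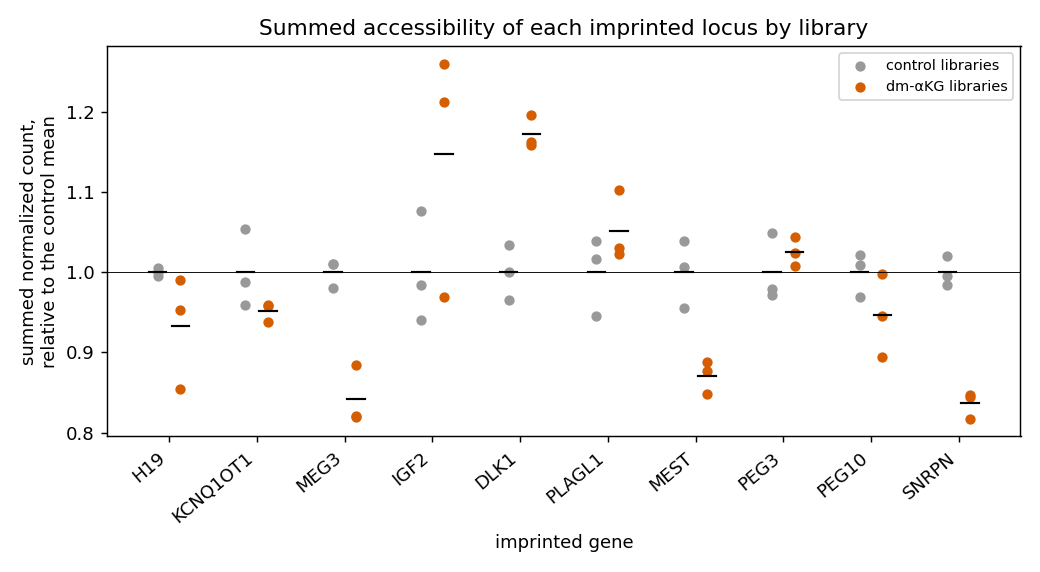
Summed normalized count of each imprinted locus in every library, divided by the mean of the 3 controls at that locus (short black lines are group means, n = 3). All orange points for MEG3, SNRPN, MEST and H19 lie below the grey points, all of DLK1's lie above, and those of the other 5 loci overlap with the controls.

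MEG3 makes a maternally expressed long non-coding RNA from the cluster it shares with DLK1. Of its 26 peaks 9 fell (34.6%, against 6.54% of all peaks) and 1 rose (3.85%, against 3.34%). That was the largest number of losses among the loci. Outside the 7 peaks that share an interval, 2 of 19 fell (10.5%) and 1 rose (5.26%), closer to the shares of all peaks. The losses centred on 7 neighbouring peaks over exons of MEG3 between chr14:100833573 and chr14:100835731, which lay in 1 control interval of 2399 bp with 7 summits. The treated list had 1 interval of 2130 bp with 6 summits there, which did not reach the leftmost of the 7 peaks. The summed normalized counts of these 7 peaks were 1305, 1246 and 1443 in controls and 699, 645 and 745 with dm-αKG. Every treated library was thus far below every control, and the mean ratio was 0.523. The log2 fold changes of the 7 ran from -1.23 to -0.76, and all 7 passed the adjusted p threshold.

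The peak at chr14:100834700-100834899, printed above, held 167, 130 and 197 normalized counts in controls and 68.8, 57.7 and 82.3 with dm-αKG. Its log2 fold change of -1.23 ± 0.17 (SE) was the largest loss at MEG3, with an adjusted p of 8.37e-09. The wider peak at chr14:100833998-100834394 held 249, 245 and 234 counts in controls and 115, 145 and 105 with dm-αKG. Neither peak had a library in which the groups met. The wider peak had the smallest p of the locus, with a log2 fold change of -1.004 ± 0.13 and an adjusted p of 1.63e-09. The other called peaks were chr14:100833573-100833772 at -1.20 ± 0.23 and chr14:100834413-100834613 at -1.01 ± 0.18. The remaining 3 of the group, from chr14:100835001 rightwards, fell by less than the fold threshold. GENCODE places transcript starts of MEG3 within 1 kb of all 7, and an overlapping unnamed gene runs through 5 of them.

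To the left of this group, towards the 5′ end of the record, the losses were smaller or not seen. The promoter peak by the rule used here, the highest mean count over all 6 libraries within 1 kb of any MEG3 start, was chr14:100828103-100828331. It held 680, 626 and 646 counts in controls and 469, 457 and 482 with dm-αKG, so the groups did not overlap. Its log2 fold change was -0.47 ± 0.08 with an adjusted p of 1.13e-06. A peak 1709 bp before the nearest start, at chr14:100824287-100824492, went from 196, 185 and 205 counts to 158, 139 and 108, a log2 fold change of -0.49 ± 0.13. That second call was lost with DESeq2 (adjusted p of 0.0224), on leaving out control 1 or 3 (0.0234 and 0.0236), and on leaving out treated library 2 or 3 (0.0156 and 0.0359). The peak centred 2 bp from a start, chr14:100826010-100826219, was picked out after its value was seen. It held 119, 140 and 123 counts in controls and 143, 155 and 136 with dm-αKG, and its log2 fold change of 0.19 ± 0.14 did not pass.

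Further upstream the MEG3 locus was highly accessible, and no peak passed the test. The strongest peak of the locus, chr14:100811429-100811636, held 837, 811 and 821 counts in controls and 713, 750 and 874 with dm-αKG, and the groups overlapped. It is 1 of 6 peaks that lie 5008 to 19558 bp upstream of the nearest start, a stretch chosen after the values were seen. Their log2 fold changes ran from -0.09 to 0.14 and their summed ratio was 0.998. GENCODE's MEG3 record begins well upstream of these peaks, at chr14:100779410, and the window 5 to 20 kb before that end, chosen to hold the control region upstream of MEG3, probably misses it, since the record starts far upstream of the start generally used for the gene. The 3 peaks in that window had log2 fold changes of -0.85, -0.54 and 0.20, none past the threshold, although the second passed without treated library 3 (adjusted p of 0.00874). The 1 gain was outside the gene, in an intron of MIR493HG at chr14:100867181-100867380. It held 35.8, 19.7 and 35.2 counts in controls and 61.7, 53.9 and 67.4 with dm-αKG, for a log2 fold change of 1.03 ± 0.25 and an adjusted p of 0.00155. The groups did not overlap, but counts were low and the call was lost with DESeq2 (adjusted p of 0.0112) and on leaving out control 2 (0.78 on the log2 scale, adjusted p of 0.0412) or treated library 1 (0.0131).

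SNRPN, which encodes a protein of the splicing machinery and is expressed from the paternal copy, has its canonical start in the control region of the Prader-Willi and Angelman cluster. Of its 29 peaks 7 fell (24.1%, against 6.54% of all peaks) and 0 rose, while 1 peak that did not pass was at 0.97. The strongest loss, chr15:24951167-24951375, lay 3664 bp before the nearest SNRPN start in an intron of the longer transcripts. It held 241, 277 and 238 counts in controls and 96.8, 87.2 and 105 with dm-αKG, so treated libraries kept well under the lowest control. Its log2 fold change of -1.40 ± 0.13 was the largest loss of any member, with an adjusted p of 1.71e-14. A weaker summit in the same interval, chr15:24950844-24951044, went from 171, 187 and 185 counts to 108, 114 and 120, a log2 fold change of -0.68 ± 0.14.

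At the canonical start itself no loss was detected. The peak at chr15:24954854-24955066, over the first exon shared with SNURF, held 305, 320 and 283 counts in controls and 356, 304 and 358 with dm-αKG. The groups overlapped, and the log2 fold change was 0.16 ± 0.09 with an adjusted p of 0.235. This peak was picked out after its value was seen. Within the gene a peak 1283 bp past the nearest start, chr15:24956176-24956401, fell by 0.44 on the log2 scale, a call lost with DESeq2 (adjusted p of 0.0181) and on leaving out control 2 (0.0488) or treated library 2 (0.0209) or 3 (0.0122).

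The other SNRPN losses were spread over the long gene. Peak chr15:24973116-24973321 held 93.9, 112 and 106 counts in controls and 37.3, 50.0 and 34.4 with dm-αKG, for a log2 fold change of -1.36 ± 0.20 and an adjusted p of 1.48e-07. Peak chr15:24859003-24859202 held 81.4, 74.0 and 61.9 counts in controls and 31.6, 28.2 and 25.4 with dm-αKG, for a log2 fold change of -1.33 ± 0.24 and an adjusted p of 1.00e-05. In both introns the highest treated library was below the lowest control. The first start of the gene record, chr15:24823563-24823788, went from 483, 410 and 412 counts to 298, 305 and 310, a log2 fold change of -0.52 ± 0.09. A peak at chr15:24865324-24865535 changed by -0.80 ± 0.15. The promoter peak by rule, chr15:24856492-24856691, also had the highest mean over all 6 libraries of the locus, with 381, 438 and 446 counts in controls and 376, 357 and 334 with dm-αKG. Its log2 fold change of -0.23 ± 0.09 did not pass, with an adjusted p of 0.0507, although the groups did not overlap.

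**Figure D3:**
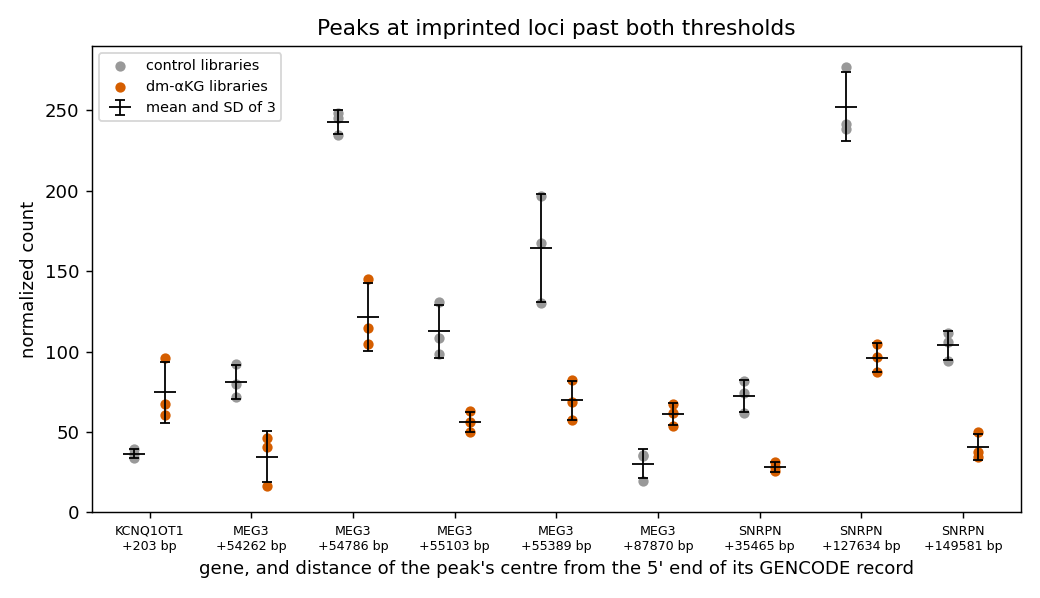
Normalized counts of the 9 member peaks past both thresholds in each control library (grey) and dm-αKG library (orange), with mean and SD (n = 3); the axis gives the gene and the distance of the peak's centre from the 5′ end of its GENCODE record. The groups are separated in all 9, with 7 lower and 2 higher with dm-αKG, and the 2 that rose have the lowest control means, 36.5 and 30.2.

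KCNQ1OT1 is a paternally expressed antisense RNA whose start lies in an intron of KCNQ1, at the control region of the Beckwith-Wiedemann cluster. Accessibility rose just inside this transcript and fell several kb further along it, while the peak just before the start did not pass the test. The peak 203 bp into the record held 39.4, 36.2 and 34.0 counts in controls and 96.1, 60.3 and 67.4 with dm-αKG. The treated libraries were all above the controls, and treated library 1 was the highest. Its log2 fold change of 1.06 ± 0.22 was the largest gain of any member, with an adjusted p of 0.000206, but without treated library 1 it was 0.80 with an adjusted p of 0.0395. The next peak, 650 bp into the record at chr11:2699253-2699453, held 106, 93.7 and 89.9 counts in controls and 171, 158 and 205 with dm-αKG. Here the groups were well apart, at a log2 fold change of 0.87 ± 0.15 and an adjusted p of 3.06e-06, and the call held with every scaling, tool and left-out library tried.

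The promoter peak of KCNQ1OT1 lies 159 bp before the record's 5′ end. It held 721, 642 and 712 counts in controls and 692, 849 and 717 with dm-αKG. The groups overlapped, and the log2 fold change was 0.12 ± 0.07 with an adjusted p of 0.267. Its control mean of 692 stood beside 36.5 for the neighbouring peak that gained most. In the control list that weaker peak had no summit of its own: 1 interval of 754 bp with 1 summit covered the start, whereas the treated list had 833 bp and 2 summits there. Further along, chr11:2693241-2693453 was the strongest peak of the locus, with 792, 782 and 876 counts in controls and 638, 686 and 718 with dm-αKG. Its log2 fold change was -0.27 ± 0.07, and the adjusted p of 0.00366 was lost with DESeq2 (0.0126) and on leaving out control 1 (0.0134) or 3 (0.0483) or treated library 1 (0.0609) or 2 (0.0136). Its neighbour chr11:2692592-2692835 changed by -0.52 ± 0.12, with an adjusted p of 0.00105 that moved to 0.0109 without treated library 2.

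**Figure D4:**
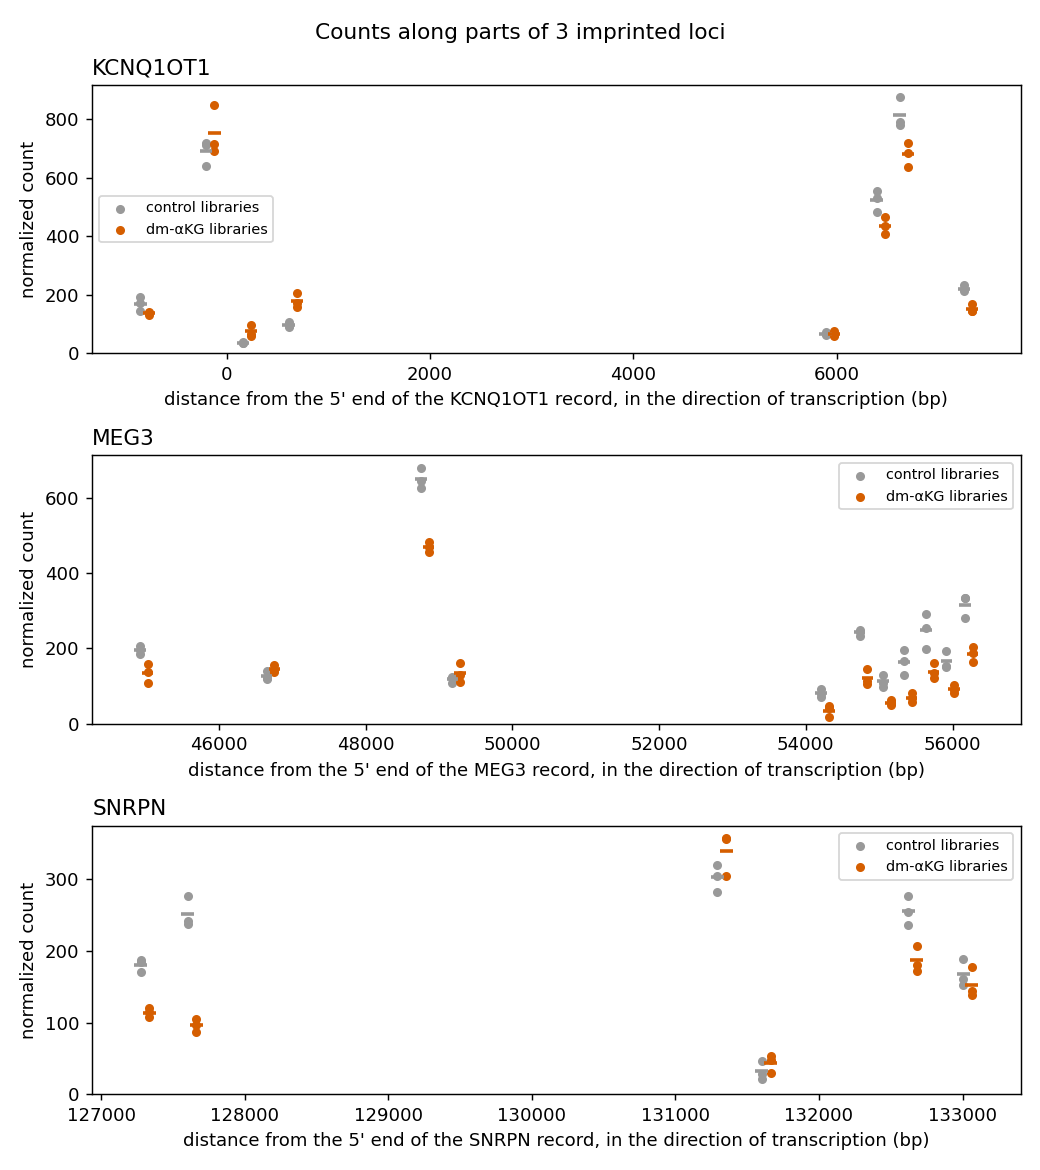
Normalized counts in each control library (grey) and dm-αKG library (orange) along parts of KCNQ1OT1, MEG3 and SNRPN, against the distance in bp from the 5′ end of the GENCODE record (horizontal marks are means of 3, and the groups are set slightly apart for legibility). The MEG3 panel shows the 7 neighbouring peaks, all lower with dm-αKG. The KCNQ1OT1 and SNRPN panels show peaks at or just before the start that did not pass the test beside flanks that did.

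H19, a maternally expressed RNA, shares its cluster with IGF2, which encodes a fetal growth factor. Of the 11 peaks at H19, 1 fell and 2 rose. The fall was outside the gene, in an intron of MRPL23 at chr11:1978925-1979126, where controls held 358, 391 and 407 counts and treated libraries 227, 255 and 239. The groups were clearly apart, at a log2 fold change of -0.69 ± 0.10 and an adjusted p of 3.77e-08. A peak in an intron of MRPL23-AS1, chr11:1988796-1989004, rose from 50.1, 43.6 and 38.9 counts to 63.1, 112 and 85.3, a log2 fold change of 0.93 ± 0.21. Its adjusted p of 0.000775 became 0.0407 without treated library 2.

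Inside H19 itself, chr11:2001382-2001581 rose from 42.0, 51.8 and 38.9 counts to 68.1, 88.5 and 70.3, a log2 fold change of 0.75 ± 0.21 with an adjusted p of 0.00783. That call was lost with DESeq2 (0.0323) and on leaving out control 1 (0.0403) or 3 (0.038) or treated library 1 (0.0141) or 2 (0.0716). The 2 peaks next to it, picked out after their values were seen, had log2 fold changes of -0.25 and 0.10 and did not pass. Another peak picked out in the same way, chr11:1997830-1998029, was centred 54 bp from an H19 start. Its log2 fold change of 0.11 ± 0.19 did not pass, with an adjusted p of 0.737. The promoter peak chr11:2004527-2004746 held 173, 196 and 198 counts in controls and 208, 226 and 165 with dm-αKG, which overlapped, at a log2 fold change of 0.09 ± 0.12. GENCODE's H19 record has its 5′ end at chr11:2004552, well upstream of the start generally used for H19. The window 1 to 6 kb before that end, chosen to hold the control region, held 0 peaks and probably misses that region, so the region may lie among the peaks that the record places inside the gene.

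At IGF2 none of the 16 peaks passed the adjusted p threshold in edgeR or DESeq2, although 3 had an unadjusted p below 0.05 in each and limma-voom passed 1. That peak lay downstream of the gene at chr11:2122593-2122803, with 156, 116 and 160 counts in controls and 216, 180 and 171 with dm-αKG. The groups did not overlap, and the log2 fold change was 0.43 ± 0.13 with an adjusted p of 0.0164, or 0.00588 without treated library 3. The promoter peak chr11:2138110-2138315 held 68.9, 78.9 and 75.3 counts in controls and 86.1, 82.1 and 92.8 with dm-αKG, for a log2 fold change of 0.22 ± 0.18.

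DLK1 encodes a membrane protein related to Notch ligands and is expressed from the paternal copy. Of its 13 peaks 0 fell and 2 rose. The strongest peak of the locus, 17176 bp upstream of the gene at chr14:100708429-100708629, held 267, 271 and 292 counts in controls and 374, 396 and 371 with dm-αKG. All treated libraries were above all controls, at a log2 fold change of 0.46 ± 0.09 and an adjusted p of 9.89e-05, and the call held with every scaling, tool and left-out library tried. The second, chr14:100733178-100733385 inside the gene, went from 70.7, 69.0 and 53.4 counts to 95.4, 97.5 and 114, a log2 fold change of 0.64 ± 0.18. Its adjusted p of 0.00781 was lost with DESeq2 (0.0298) and on leaving out any 1 library (0.0154 to 0.0531). The promoter peak chr14:100726565-100726776 held 81.4, 99.5 and 83.8 counts in controls and 106, 100 and 114 with dm-αKG, and its log2 fold change of 0.26 ± 0.17 did not pass.

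PLAGL1 encodes a zinc finger regulator of growth genes, and its imprinted start is shared with the RNA HYMAI. Of 14 peaks 1 fell and 1 rose. The rise was at an internal start, chr6:143964651-143964853, where controls held 87.7, 93.7 and 94.7 counts and treated libraries 137, 160 and 168. Every treated library was above every control, at a log2 fold change of 0.74 ± 0.15 and an adjusted p of 0.000165. The fall, at chr6:143942226-143942429, was -0.63 ± 0.18 with an adjusted p of 0.00623 that was lost with DESeq2 (0.0263) and on leaving out any 1 library (0.012 to 0.038). The peak over the start shared with HYMAI, chr6:144008229-144008471, held 147, 139 and 112 counts in controls and 176, 164 and 126 with dm-αKG. It did not pass, at a log2 fold change of 0.24 ± 0.14.

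PEG3, a paternally expressed zinc finger gene, had the narrowest range of log2 fold changes, from -0.16 to 0.27. None of its 11 peaks passed the adjusted p threshold in edgeR, DESeq2 or limma-voom, and 1 had an unadjusted p below 0.05 in each. The 8 peaks inside the gene, all in the stretch from its start to 3578 bp along it, held 3182, 3422 and 3153 counts together in controls and 3314, 3415 and 3327 with dm-αKG. Their log2 fold changes lay between -0.07 and 0.27. The strongest, chr19:56839320-56839525, held 636, 695 and 640 counts in controls and 657, 697 and 660 with dm-αKG, for a log2 fold change of 0.03 ± 0.07. The promoter peak by rule, chr19:56839583-56839783, was at -0.03 ± 0.08.

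PEG10 comes from a retrotransposon and shares its start region with SGCE on the other strand. The promoter peak, chr7:94656093-94656292, lay over an SGCE start, 33 bp outside the PEG10 record. It was the only one of 6 that passed, with 204, 177 and 189 counts in controls and 127, 145 and 127 with dm-αKG. The groups did not overlap, and the log2 fold change was -0.52 ± 0.13. Its adjusted p of 0.00254 was lost with DESeq2 (0.0129) and on leaving out control 1 (0.0363) or treated library 1 (0.0303). In contrast, the peak 1645 bp into the gene, chr7:94657854-94658086, held 1512, 1423 and 1546 counts in controls and 1351, 1437 and 1525 with dm-αKG. It was the strongest member of all, and its log2 fold change was -0.06 ± 0.06.

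MEST encodes a protein of the hydrolase fold and is expressed from the paternal copy. None of its 5 peaks passed in edgeR, DESeq2 or limma-voom, with 2, 1 and 2 at an unadjusted p below 0.05. The strongest, the promoter peak chr7:130486172-130486372, held 252, 211 and 264 counts in controls and 172, 178 and 207 with dm-αKG. The groups came close but did not overlap, and the log2 fold change was -0.39 ± 0.12 with an adjusted p of 0.0112. It passed with a count filter (0.00809), on leaving out control 2 (0.00585) or treated library 3 (0.0034), and with the replicate number as a block (0.00981). The peak at the canonical start, chr7:130492227-130492436, held 159, 160 and 162 counts in controls and 189, 155 and 153 with dm-αKG, for a log2 fold change of 0.07 ± 0.13.

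Taking the 10 promoter peaks alone, 2 fell, at MEG3 and PEG10, and 0 rose, with a median log2 fold change of 0.03. These peaks were ranked by their mean over both groups: ranked by the control mean, a choice made after seeing the data, the peaks of SNRPN and H19 would be those at chr15:24823563-24823788 and chr11:2001738-2001939, and 3 of 10, now with SNRPN, would have fallen. No promoter peak reached the fold threshold of 1 under either ranking. Among members within 1 kb of any transcript start 10 of 53 fell (18.9%), against 2.72% of all such peaks, and 7 of those 10 were the neighbouring MEG3 peaks, while 4 of 53 rose (7.55%), against 4.23%. Among members farther away 11 of 88 fell (12.5%), against 8.69%, and 4 rose (4.55%), against 2.84%. The test of this difference was not run, since members were chosen as a list.

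The members were richer in G and C than the table as a whole, with a median of 60.5% against 55.5% in the 200 bp around each centre. The CTCF core GGNGGCAG, searched exactly on both strands in the same window, was found in 26 members (18.4%) and in 12.8% of all peaks. The ZFP57 motif TGCCGC, searched the same way, was found in 20 members (14.2%) and in 9.41% of all peaks. All 20 were among the 112 members that did not pass, and the motif was found in 0 of the 21 that fell and 0 of the 8 that rose. Over the whole table it was in 4.15% of peaks that fell and 10.7% of those that rose. Finding 0 among so few members does not set them apart from these shares. Of the 20, 1 PEG3 peak held 3 matches and 4 held 2, namely the peak at the canonical SNRPN start, 1 in H19 and 2 at PLAGL1. With C at its open position the CTCF core contains the reverse complement of the ZFP57 motif, so 1 stretch of letters can count for both. A match is a description of letters, not of binding.

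No promoter peak of other imprinted genes passed the fold threshold. Of 30 listed genes 25 had a promoter peak, 3 of them shared with a member, and 3 fell and 0 rose, with a median log2 fold change of 0.02. Of all peaks within 1 kb of a start, 2.72% fell and 4.23% rose. Those had a median control count of 92.5, against 242 for the 25 promoter peaks, so the shares are not matched for count. SGCE was the peak shared with PEG10. MKRN3, in the SNRPN cluster, held 286, 299 and 288 counts in controls and 214, 240 and 208 with dm-αKG, for a log2 fold change of -0.40 ± 0.10 and an adjusted p of 0.00309. That call was lost with DESeq2 (0.0152) and on leaving out control 1 (0.0148) or 2 (0.0237) or treated library 1 (0.0318). ZDBF2 was at -0.36 ± 0.11 with an adjusted p of 0.00968, and was lost with DESeq2 (0.0391), limma-voom, every other scaling and 5 of the 6 single libraries left out (0.0128 to 0.0739), the exception being treated library 3.

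Of 15 genes for factors that keep or remove methylation at imprints, 14 had a promoter peak, and 2 fell and 2 rose. Among all peaks within 1 kb of a start 2.72% fell and 4.23% rose. Their median control count was 92.5, against 263 for the promoter peaks of the factors, so these shares are not matched for count. ZFP57, the zinc finger that recognises imprints, held 186, 187 and 198 counts in controls and 142, 127 and 74.8 with dm-αKG. All treated libraries were below the controls and treated library 3 was the lowest, at a log2 fold change of -0.68 ± 0.14 and an adjusted p of 0.000211. TRIM28, its co-repressor, went from 707, 732 and 684 counts to 867, 871 and 849, a log2 fold change of 0.28 ± 0.07 with an adjusted p of 0.00123, or 0.0117 without control 3. TET1 rose from 209, 218 and 176 counts to 254, 271 and 272, at 0.38 ± 0.11 with an adjusted p of 0.0081. SMCHD1, a chromatin protein of imprinted clusters and the inactive X, was at -0.38 ± 0.11 with an adjusted p of 0.00814. The call of TET1 was lost with DESeq2 (0.0314) and on leaving out any library but control 2 (0.0167 to 0.0691). The call of SMCHD1 was lost with DESeq2 (0.0359), loess offsets (0.0121), total-count scaling (0.0115) and on leaving out any 1 library (0.0102 to 0.0844). DNMT1, the maintenance methyltransferase, held 241, 252 and 243 counts in controls and 186, 199 and 181 with dm-αKG, and its adjusted p of 0.0106 missed the threshold; it is named after its value was seen.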

How the data were processed

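Per the labels and the study's methods, the authors ran the ENCODE ATAC-seq pipeline once per treatment: reads were trimmed, aligned to hg38 with Bowtie 2 and filtered, and MACS2 peaks of the 3 replicates were reduced to a reproducible list. They cut the peaks of both lists to 200 bp around each summit, merged them (bedtools 2.28.0) and counted reads, so a wide open region can give several neighbouring peaks. The deposited table holds these raw counts, unnormalized. The 2 deposited peak lists, with the authors' fold enrichment and −log10 q-value, were used only for intervals, summits and list membership. Counts were scaled with TMM and tested over all 171517 peaks with edgeR 4.0.16 (R 4.3.3), treatment being the only term. DESeq2 1.42.0, the study's tool, and limma 3.58.1 were alternatives. Normalized counts are counts scaled to the mean effective library size, and SE is the log2 fold change over the root of its F statistic. On simulated data for this comparison (171517 peaks), edgeR recovered 183 of 200 changes of 3-fold with 1 false call. The changes were placed only in peaks above a minimum mean count, so the recovery does not apply to weak peaks or smaller changes. GENCODE 44 gave genes and starts. Exact permutation of 3 against 3 cannot go below 0.1, so none is given.

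Named per locus were the promoter peak (highest mean count over all 6 libraries, centred within 1 kb of a start), the strongest peak (by the same mean), the peak of smallest p and each peak at an adjusted p below 0.01, for H19 and MEG3 also an upstream window, and of other genes those whose promoter peak passed. Canonical starts and other peaks said to be picked out later were added afterwards. Members and lists were chosen with earlier results of these data known. The sequences of some peaks are not reported here.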

Additional observations from a re-analysis of the deposited data

How the results depend on the processing

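Of the 29 members that passed the adjusted p threshold, all kept their sign wherever they had a value, 21 still passed with DESeq2, and 21 to 25 passed when 1 library was left out. Members called less accessible numbered 5 to 7, and 3 without the 7 neighbouring MEG3 peaks, an alternative chosen after seeing the data. Members called more accessible numbered 1 with DESeq2, 1 among peaks inside the genes (0 kb), 1 among peaks in both lists, and 1 to 3 without 1 library. Members that rose numbered 5 with DESeq2, 5 at 0 kb, 14 at an adjusted p below 0.05, and 4 to 10 without 1 library. Members that fell numbered 16 to 25 with all 7 MEG3 peaks. The near-zero median log2 fold change moved across 0: -0.0150 with limma-voom, 0.00331 with loess offsets, -0.0107 with the replicate block, -0.0166 for peaks in both lists, -0.0138 with the count filter, 0.0133 with total-count scaling, -0.0236 at 0 kb, 0.00401 at 10 kb and 0.00401 at 100 kb, 0.0214 without the MEG3 peaks, and -0.0151 to 0.0362 without 1 library.

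Same-numbered libraries of the groups did not deviate together (correlations of -0.0158, -0.00138 and 0.0127). These values cannot show whether such libraries were handled together, and the labels give only a replicate number. With the replicate block 7 and 2 members were called and 22 fell and 8 rose. Peaks near 0 changed sign without 1 library, none past the threshold: PEG3 promoter -0.0730 to 0.0221, MEST canonical start -0.0541 to 0.125, H19 at chr11:2002028-2002249 -0.00852 to 0.253, and the DLK1 canonical start -0.157 to 0.121, also 0.00477 with total-count scaling. The cause was not tested. The depth limits weak peaks most: 13025674 counts in the shallowest library left several members under 20 counts.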
